A study of Homo sapiens with 96 samples.

Results

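KIAA0195, CCDC78, IFT27, ARSA, and PCNXL2 are 5 genes that each hold a retained intron (RI) whose change in inclusion was among the largest measured in A549 cells after inhibition of protein arginine methyltransferases (PRMTs). They were selected on that readout. In IFT27 and ARSA the event listed as an RI spans an exon, and its skipping reads are also those of an exon-skipping event. A comparison with DMSO counts as selecting any of the 5 genes that has an RI among the 2 largest absolute changes in Ψ. Only RI that passed the test with no library under 50 reads were ranked. Not every RI among the 2 largest belongs to these genes. The 5 genes account for 217 of the 239131 splicing events listed in the data, and for 16 of the 4928 RI, out of 14359 gene symbols. Of the 217 events, 195 had at least 10 reads in every library of some comparison and so could be described. The gene KIAA0195 is now called TMEM94, and PCNXL2 is now called PCNX2.

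The poly(A)-RNA of A549, a widely used line that was derived from a lung adenocarcinoma, was sequenced in 30 libraries, 3 for each of 10 groups. The cultures were given 1 µM GSK591, an inhibitor of PRMT5, or 1 µM MS023, an inhibitor of the Type I PRMTs, for 2, 4, or 7 days, both inhibitors together (co-treatment) for 2 or 4 days, or 0.01% DMSO for 4 or 7 days. Inhibitor groups of 2 and 4 days were set against DMSO at 4 days, and those of 7 days against DMSO at 7 days, a control that was inferred from the labels. In a comparison at 2 days, the inhibitor and the shorter time therefore cannot be told apart. Nothing says that the 3 libraries of a group came from separate cultures, so the p-values measure only the spread between these libraries. The tables hold splicing events and no expression levels, so markers of the cell line were not checked. Between 3148825 and 5224249 reads per library fell on RI events, and libraries are called a, b, and c by their position in the tables, which is not a pairing.

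PRMTs place methyl groups on arginine residues, with the Type I enzymes making the asymmetric and PRMT5 the symmetric form of dimethylarginine, and many of their substrates are RNA-binding and splicing proteins. An RI is an intron that stays in some of the polyadenylated transcripts of a gene while it is spliced out of others. The level of inclusion, Ψ, is the share of transcripts that carry the segment, estimated from inclusion reads, which lie within the segment or across its ends, and skipping reads, which join the flanking exons, each divided by its effective length. In IFT27 and ARSA, where the RI spans an exon, inclusion reads also include reads on that exon. Ψ of these RI is therefore not the share of transcripts that retain an intron. ΔΨ is Ψ with inhibitor minus Ψ with DMSO, so a positive value is more of the segment in the RNA. Because RNA came from whole cultures, more cells with the retained transcript and more of it per cell cannot be told apart.

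The proteins belong to unlike parts of the cell. KIAA0195 encodes a transmembrane protein related to ion-transporting ATPases and linked to magnesium transport. CCDC78 is a coiled-coil protein that takes part in making many centrioles in multiciliated cells. IFT27 is a small GTPase of the IFT-B complex, which carries cargo along cilia. ARSA is arylsulfatase A, the lysosomal enzyme that removes sulfate from sulfatide and the loss of which causes metachromatic leukodystrophy. PCNXL2 is a membrane protein of the pecanex family.

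In each gene the RI with the largest absolute ΔΨ over the 8 comparisons with DMSO is called the extreme RI. All positions are on hg19 (GRCh37), counted from 1, and gene models are those of GENCODE on that build. In KIAA0195 it is chr17:73489184-73489571 on the + strand, 388 bases long and intron 16 of 31 of the canonical transcript. In CCDC78 it is chr16:773162-773856 on the - strand, 695 bases long and intron 11 of 13. In PCNXL2 it is chr1:233120224-233121837 on the - strand, 1614 bases long and the last intron, 33 of 33. These 3 are introns of annotated transcripts that lie between coding bases. The extreme RI of IFT27, chr22:37154454-37159962 on the - strand, and that of ARSA, chr22:51065189-51065593 on the - strand, are not introns of any annotated transcript (0 of 12 and 0 of 8). Each spans an exon of the canonical transcript together with the introns on both sides of it.

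The splice sites of the extreme RI are shown because they are the ends whose use is measured. Each 5′ site has 3 exonic and 6 intronic bases, each 3′ site has 20 intronic and 3 exonic bases, all are written 5′ to 3′ on the strand of the gene from the GRCh37 genome, and capitals mark the first and the last 2 bases of the intron.
KIAA0195 5′ site, chr17:73489181-73489189: ccaGTgagc
KIAA0195 3′ site, chr17:73489552-73489574: gtttgaactctctcccccAGgca
CCDC78 5′ site, chr16:773851-773859: acaGTgagt
CCDC78 3′ site, chr16:773159-773181: cctttcctctcccctcacAGggg
IFT27 5′ site, chr22:37159957-37159965: cagGTacgg
IFT27 3′ site, chr22:37154451-37154473: tttttaaactgtctttccAGaaa
ARSA 5′ site, chr22:51065588-51065596: cagGTagga
ARSA 3′ site, chr22:51065186-51065208: actccagtctttgcccccAGcac
PCNXL2 5′ site, chr1:233121832-233121840: cggGTaagg
PCNXL2 3′ site, chr1:233120221-233120243: ttctctcttctctttggaAGcac
The exons spanned in IFT27 (chr22:37158948-37159057, 110 bases) and in ARSA (chr22:51065262-51065480, 219 bases) have splice sites of their own, and are shown because their use decides whether the outer ends are joined directly.
IFT27 spanned exon, 3′ site before it: tggttgtttcttctgagtAGgtg
IFT27 spanned exon, 5′ site after it: gtgGTgagt
ARSA spanned exon, 3′ site before it: acggcagctgcccgcctcAGggc
ARSA spanned exon, 5′ site after it: cacGTaagt

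The extreme RI were spread widely among all RI in the strength of their splice sites. Each site was scored by the summed log2 ratio of its base frequencies at introns that flank skipped exons in these tables to equal base frequencies. The 5′ site of KIAA0195 scored 4.67, at percentile 19.9 of all 4928 RI, and that of CCDC78 stood at percentile 36.7. The 5′ sites of IFT27, ARSA, and PCNXL2 stood at percentiles 69.3, 74.7, and 76.7. The 3′ site of CCDC78 scored 13.05, at percentile 95.2, against a median of 7.33 over all RI, while the other 3′ sites stood between percentiles 48.0 and 81.5. The 3′ site of the spanned ARSA exon scored 1.73, below the 7.15 of the outer 3′ site. In length the RI of IFT27 (5509 bases) stood at percentile 99.9 and that of PCNXL2 at percentile 93.3, while the median RI had 260 bases. The annotation places an exon inside 676 of the 4928 RI, which is 13.7%, and the RI of IFT27 and ARSA are of that kind.

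The values that selected the genes are given as a description, with no test. KIAA0195 had the largest absolute ΔΨ of 971 RI after 2 days of GSK591 (0.524). CCDC78 had the largest of 1244 RI after 2 days of co-treatment (0.612) and the second of 1457 RI after 4 days (0.593). IFT27 was second after 2 days of co-treatment (-0.586). ARSA had the largest of 217 RI after 2 days of MS023 (-0.387), with PCNXL2 second (0.328), and PCNXL2 was second of 271 RI after 4 days of MS023 (0.351). RI of other genes, which are not described here, were second with GSK591 at 2 days (-0.521) and largest after 4 days of co-treatment (0.632) and of MS023 (0.420). The third RI had a ΔΨ of 0.497 with GSK591 at 2 days, and 0.571 and 0.589 with co-treatment at 2 and 4 days. With MS023 the third RI had -0.268 and -0.333 at 2 and 4 days. The RI at 0.571 was another intron of CCDC78. Tests are given below only for comparisons in which no library had taken part in selecting that gene under the rule of the 2 largest. This leaves 9 comparisons each for KIAA0195, IFT27, and ARSA, and 7 each for CCDC78 and PCNXL2. The extreme RI was named over all 8 comparisons, in KIAA0195 by GSK591 at 4 days (0.583), so some tested libraries took part in that naming. In each gene it is also the RI that selected the gene. Tests of the extreme RI are therefore not wholly free of the choice.

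**Figure D1:**
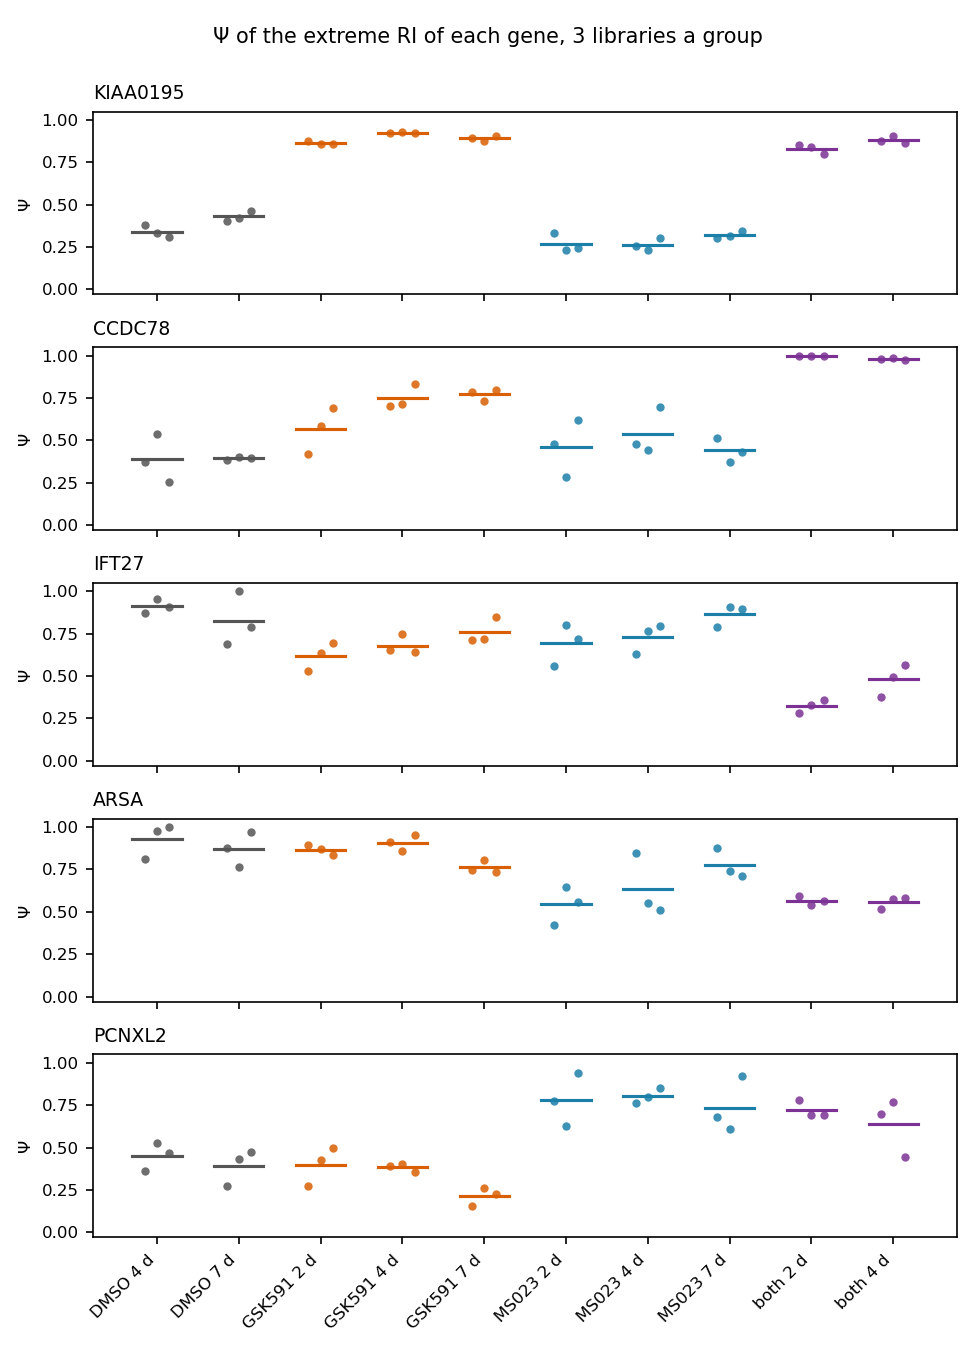
Ψ of the extreme RI (vertical axis, 0 to 1) in each of the 3 libraries (points) of the 10 groups (horizontal axis), 1 panel a gene, with lines at group means. KIAA0195 lies between 0.797 and 0.928 in all groups with GSK591 and at or below 0.464 in all others, CCDC78 reaches 1.000 with co-treatment, the mean of IFT27 is lowest with co-treatment (0.326 at 2 days) and that of ARSA with MS023 at 2 days (0.544), and PCNXL2 is high with MS023 and lowest with GSK591 at 7 days (0.214).

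In KIAA0195 the extreme RI was present in most transcripts of every group that received GSK591 and in a minority elsewhere. With DMSO at 4 days Ψ was 0.377, 0.330, and 0.312 in the 3 libraries, and after 2 days of GSK591 it was 0.877, 0.857, and 0.856. After 4 days of GSK591 the libraries gave 0.921, 0.928, and 0.921, the largest ΔΨ of the gene (0.583). The groups did not overlap. At 7 days, in libraries that did not select the gene, Ψ was 0.895, 0.878, and 0.904 with GSK591 against 0.405, 0.424, and 0.464 with DMSO. This intron therefore rose from 0.431 ± 0.030 (SD, n = 3) to 0.893 ± 0.013 at 7 days, a ΔΨ of 0.461 (quasi-binomial test with limma moderation, adjusted p = 5.04e-10).

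The same KIAA0195 intron fell with MS023 at 7 days. Ψ was 0.306, 0.313, and 0.346 with MS023 for 7 days, below every DMSO library, with a ΔΨ of -0.109 (limma-moderated adjusted p = 0.0207). This call was lost when any of the 6 libraries was left out and with limma on log2 odds. The latter called 0 of all 3887 RI in this comparison. Between the inhibitors the intron differed by 0.659 at 4 days and 0.571 at 7 days (GSK591 minus MS023, limma-moderated adjusted p = 4.02e-05 and 7.86e-05). The GSK591 libraries of 4 days also gave the ΔΨ by which this RI was named extreme. Co-treatment exceeded MS023 alone by 0.561 at 2 days and 0.618 at 4 days (adjusted p = 4.74e-04 and 8.13e-05 from the limma-moderated test), whereas against GSK591 alone at 4 days it differed by -0.041 (adjusted p = 0.19). In order of mean Ψ the groups were MS023 at 4, 2, and 7 days (0.264, 0.268, and 0.322), DMSO at 4 and 7 days (0.340 and 0.431), co-treatment at 2 days (0.829), GSK591 at 2 days (0.864), co-treatment at 4 days (0.882), and GSK591 at 7 and 4 days (0.893 and 0.923). Neighbours in this order overlapped, except DMSO at 4 and 7 days, DMSO at 7 days and co-treatment at 2 days, co-treatment and GSK591 at 2 days, and GSK591 at 7 and 4 days.

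Both kinds of reads of the KIAA0195 intron differed between the groups. Inclusion reads numbered 203 to 241 per library with DMSO at 4 days and 923 to 1128 with GSK591 at 4 days, while skipping reads numbered 108 to 136 and 20 to 27. Scaled to reads per 1000000 reads on RI events of the library (RPM), inclusion reads averaged 54.7 RPM with DMSO and 258 with GSK591 at 4 days, and skipping reads averaged 29.6 and 5.97. The ratio of GSK591 to DMSO was then 4.72 for inclusion and 0.202 for skipping reads, and 4.81 and 0.206 when reads were scaled to the 72923 events listed for all 10 groups. At 7 days the inclusion reads averaged 74.3 RPM with DMSO and 168 with GSK591, and the skipping reads 27.5 and 5.67. Co-treatment at 4 days had the most inclusion reads, at 374 RPM, beside 13.8 skipping reads.

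The other 2 RI of KIAA0195 had smaller ΔΨ. Intron 4 (chr17:73482080-73482370) had a mean Ψ of 0.060 with DMSO at 4 days, 0.208 with GSK591 at 2 days, and 0.232 at 4 days. At 7 days it rose from 0.065 ± 0.030 to 0.174 ± 0.037, a ΔΨ of 0.110 (limma-moderated adjusted p = 3.13e-04), with no overlap of the groups. Intron 29 (chr17:73494620-73494709) had a ΔΨ of 0.009 with GSK591 (adjusted p = 0.738, same test) and 0.033 with MS023 at 7 days (adjusted p = 0.326). Over the 98 events of the gene other than RI with enough reads, the largest absolute ΔΨ was 0.267, and the median over events of their largest value was 0.012.

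That value of 0.267 belongs to an exon at chr17:73488320-73488418, upstream of the extreme RI. Its Ψ fell from 0.376 to 0.109 with GSK591 at 7 days (ΔΨ -0.267, limma-moderated adjusted p = 5.51e-04). The exon was named for this largest ΔΨ, so the p-value is not free of that choice. Its inclusion reads were few, at 14, 6, and 13 with DMSO and 8, 6, and 6 with GSK591. With MS023 at 7 days its ΔΨ was -0.189 (adjusted p = 0.187). A pair of alternative exons further upstream also fell with GSK591 at 7 days. Their skipping reads were equal in each library (18, 42, and 33 with DMSO, 51, 53, and 35 with GSK591), so they are not separate observations. The exon at chr17:73484840-73484991 went from 0.782 to 0.676, with overlap of the libraries (adjusted p = 0.0158, limma-moderated test), and that at chr17:73484013-73484215 from 0.874 to 0.775 (adjusted p = 1.46e-04). Events that share a splice site or exon with the extreme RI had a ΔΨ between -0.003 and -0.001 in the comparisons that listed them, except a pair of mutually exclusive exons (chr17:73489572-73489674 and its partner) with -0.196 at 4 days of GSK591, for which no test is given.

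In CCDC78 the extreme RI was spliced out in most DMSO transcripts and retained in nearly all with co-treatment. With DMSO at 4 days the extreme RI had a Ψ of 0.373, 0.535, and 0.257. With co-treatment at 2 days all 3 libraries gave 1.000, from 186, 178, and 116 inclusion reads and 0 skipping reads. Had 3 skipping reads gone unseen in each library, the limit that a count of 0 allows for counting error, Ψ would have been at least 0.916, 0.913, and 0.872. At 4 days of co-treatment Ψ was 0.982, 0.989, and 0.974. GSK591 alone gave 0.421, 0.585, and 0.691 at 2 days, which overlapped DMSO, and 0.705, 0.714, and 0.830 at 4 days, which did not.

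At 7 days, apart from the libraries that selected the gene, Ψ of the CCDC78 intron was 0.787, 0.731, and 0.800 with GSK591 against 0.386, 0.401, and 0.394 with DMSO. It rose by 0.379 (limma-moderated adjusted p = 5.79e-05). With MS023 at 7 days the libraries gave 0.514, 0.375, and 0.432, on both sides of DMSO, and ΔΨ was 0.047 (adjusted p = 0.772, same test). GSK591 exceeded MS023 by 0.332 at 7 days (limma-moderated adjusted p = 0.0109), a call lost without MS023 library b (0.300, adjusted p = 0.0506), and by 0.210 at 4 days (adjusted p = 0.0674). In order of mean Ψ the groups were DMSO at 4 and 7 days (0.388 and 0.393), MS023 at 7, 2, and 4 days (0.440, 0.461, and 0.540), GSK591 at 2, 4, and 7 days (0.566, 0.750, and 0.773), and co-treatment at 4 and 2 days (0.982 and 1.000). Neighbours overlapped except GSK591 at 2 and 4 days, GSK591 at 7 days and co-treatment at 4 days, and the co-treatment groups.

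Of the 6 RI of CCDC78, 5 passed the test with GSK591 at 7 days, all with higher Ψ, where 27.9% of all RI passed in either direction. Besides the extreme RI these were intron 5 (chr16:775146-775236), with a ΔΨ of 0.270 (adjusted p = 5.35e-04), intron 6 (chr16:774990-775077), with 0.184 (2.69e-05), intron 8 (chr16:774510-774680), with 0.068 (0.0438), and intron 12 (chr16:773023-773094), with 0.370 (2.29e-04), all by the limma-moderated test. The sixth, chr16:773019-773094, ends 4 bases beyond intron 12 and shares its inclusion reads, and had a ΔΨ of 0.126 (adjusted p = 0.114). None passed with MS023 at 7 days, where 11.4% of all RI passed, and ΔΨ of the 6 RI lay between -0.135 and 0.195. Introns 6 and 8 were mostly retained already, with a mean Ψ of 0.816 and 0.927 with DMSO at 7 days.

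Intron 5 of CCDC78 came close to the extreme RI. Its Ψ was 0.400, 0.282, and 0.501 with DMSO at 4 days and 0.823, 0.800, and 0.806 after 2 days of GSK591, where the extreme RI still overlapped DMSO. In comparisons apart from the selection, GSK591 exceeded MS023 in intron 5 by 0.455 at 2 days, 0.288 at 4 days, and 0.405 at 7 days (limma-moderated adjusted p = 0.00214, 0.0166, and 0.00226). DMSO itself was unequal here, at 0.394 ± 0.109 at 4 days and 0.626 ± 0.076 at 7 days, with no overlap of the 3 libraries of each. The 5′ site of intron 5 scored 3.67, at percentile 12.1 of all RI.

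CCDC78 reads were fewer than those of KIAA0195. Inclusion reads of the extreme RI averaged 30.2 RPM with DMSO at 4 days, 89.7 with GSK591, and 137 with co-treatment at 4 days, beside 9.15, 5.37, and 0.441 skipping reads. With MS023 both were lower than with DMSO at the same time, at 15.6 inclusion and 2.47 skipping RPM at 4 days, and Ψ was 0.540. That is 0.515 of the DMSO level for inclusion reads, and 0.499 on the scale of the 72923 shared events. Besides its RI, the gene has an alternative exon at chr16:775446-775580 whose Ψ fell from 0.949 to 0.461 with GSK591 at 7 days (ΔΨ -0.488, limma-moderated adjusted p = 2.36e-05). The exon has 2 longer forms in the tables, starting at 775413, which overlap it and share its reads, with a ΔΨ of -0.348 and -0.329 (adjusted p = 4.64e-06 and 0.00156). All 3 forms were named for these ΔΨ, their largest, so the p-values are not free of that choice. With co-treatment, which also holds GSK591, the longer forms were not low. At 4 days both had a Ψ of 1.000 in every library, and at 2 days 1.000, 1.000, and 0.832 and 1.000, 1.000, and 0.794. With MS023 at 7 days ΔΨ of the shortest form was -0.115 (adjusted p = 0.477).

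**Figure D2:**
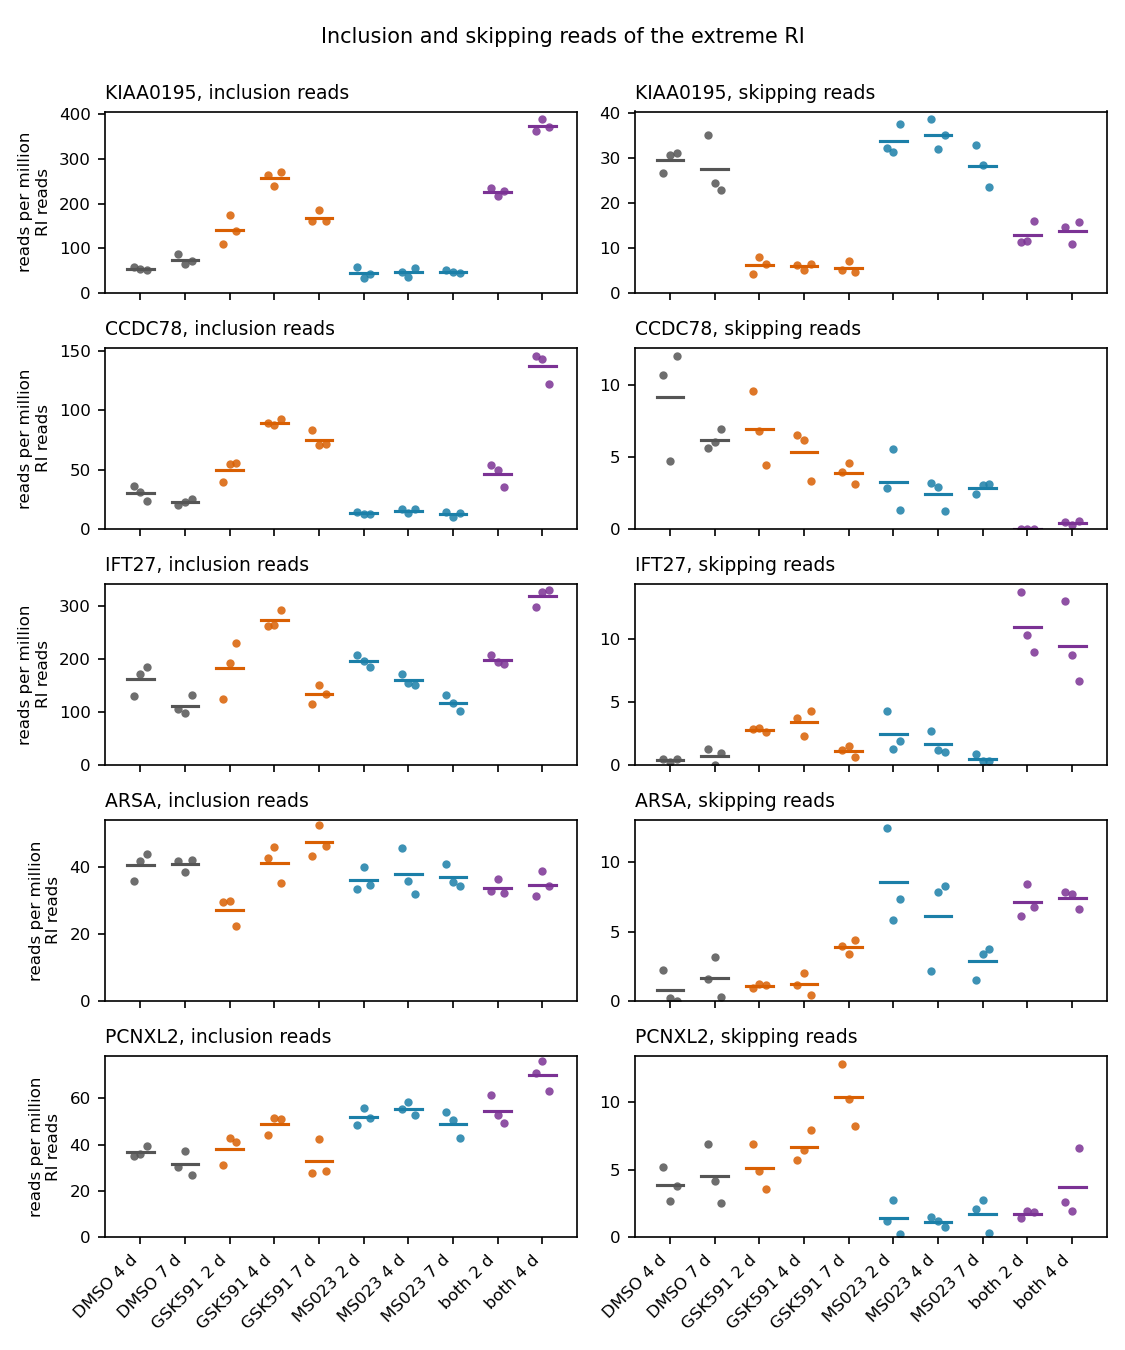
Inclusion reads (left) and skipping reads (right) of the extreme RI in RPM, scaled to 1000000 reads on RI events of the library (vertical axes), in each library (points) of the 10 groups (horizontal axis), with lines at group means. Skipping reads of KIAA0195 average between 5.67 and 6.25 RPM with GSK591 alone, CCDC78 has 0 with co-treatment at 2 days, and those of IFT27 average 11.0 there against 0.408 with DMSO at 4 days.

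In IFT27 the extreme RI had lower Ψ with inhibitors at 2 and 4 days than with DMSO. Ψ was 0.874, 0.953, and 0.907 with DMSO at 4 days, and 0.285, 0.332, and 0.359 with co-treatment at 2 days. Co-treatment at 4 days gave 0.377, 0.496, and 0.568. Behind these values were 2, 1, and 2 skipping reads with DMSO at 4 days, 47, 37, and 29 with co-treatment at 2 days, and 55, 32, and 23 at 4 days; inclusion reads numbered at least 525 in these libraries. Each inhibitor alone lay in between, with a mean of 0.621 for GSK591 and 0.695 for MS023 at 2 days, and none of these libraries overlapped DMSO at 4 days.

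No comparison apart from the selection passed for the IFT27 RI, in 0 of 9 by the limma-moderated test, although 2 had an unadjusted p under 0.05 and limma on log2 odds called 1. At 7 days Ψ was 0.715, 0.722, and 0.849 with GSK591, 0.792, 0.910, and 0.895 with MS023, and 0.690, 1.000, and 0.788 with DMSO. These DMSO values rest on 4, 0, and 3 skipping reads, and for the library with 0 the count allows a Ψ as low as 0.730. ΔΨ was -0.064 with GSK591 (adjusted p = 0.802, limma-moderated test) and 0.040 with MS023 (adjusted p = 0.805), so at this depth no difference was detectable at 7 days. Co-treatment at 4 days differed from GSK591 by -0.200 (adjusted p = 0.202) and from MS023 by -0.250 (adjusted p = 0.064), the comparison that limma on log2 odds called (0.0383). In order of mean Ψ the groups were co-treatment at 2 and 4 days (0.326 and 0.480), GSK591 at 2 and 4 days (0.621 and 0.681), MS023 at 2 and 4 days (0.695 and 0.730), GSK591 and DMSO at 7 days (0.762 and 0.826), MS023 at 7 days (0.866), and DMSO at 4 days (0.911). Only the co-treatment groups were neighbours that did not overlap.

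The skipping junction of the IFT27 RI is also that of an exon event. The skipped exon is the spanned exon shown above, chr22:37158948-37159057, and its skipping reads equalled those of the RI in 30 of 30 libraries. Its Ψ was 0.992, 0.997, and 0.992 with DMSO at 4 days and 0.652, 0.751, and 0.777 with co-treatment at 2 days, without overlap. Co-treatment at 4 days differed from MS023 by -0.188 (limma-moderated adjusted p = 0.0476). These reads join the exons on either side of a 110-base exon, so they come from transcripts that lack that exon. The inclusion reads of the RI count reads on the same exon. The RI and the exon event of IFT27 are therefore not independent, and Ψ of the RI does not measure intron retention alone.

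Another exon of IFT27 had lower Ψ in the groups with GSK591. The exon at chr22:37162182-37162241 had a mean Ψ of 0.986 with DMSO at 4 days, 0.850 and 0.828 with GSK591 at 2 and 4 days, and 0.491 and 0.412 with co-treatment at 2 and 4 days. In libraries that did not select the gene it fell with GSK591 at 7 days from 0.966 to 0.837 (ΔΨ -0.130, limma-moderated adjusted p = 7.47e-09). With MS023 at 7 days ΔΨ was -0.006 (adjusted p = 0.721). At 4 days co-treatment differed from MS023 by -0.575 (limma-moderated adjusted p = 0.0232), and GSK591 differed from MS023 by -0.160 (adjusted p = 0.0302). The co-treatment libraries of 4 days also gave the ΔΨ for which this exon was named (-0.574). The other RI of IFT27, chr22:37171839-37172074 at the 5′ end of the gene, stayed between 0.954 and 0.996 in all group means, with a GSK591 minus MS023 difference of 0.040 at 7 days (limma-moderated adjusted p = 0.025).

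**Figure D3:**
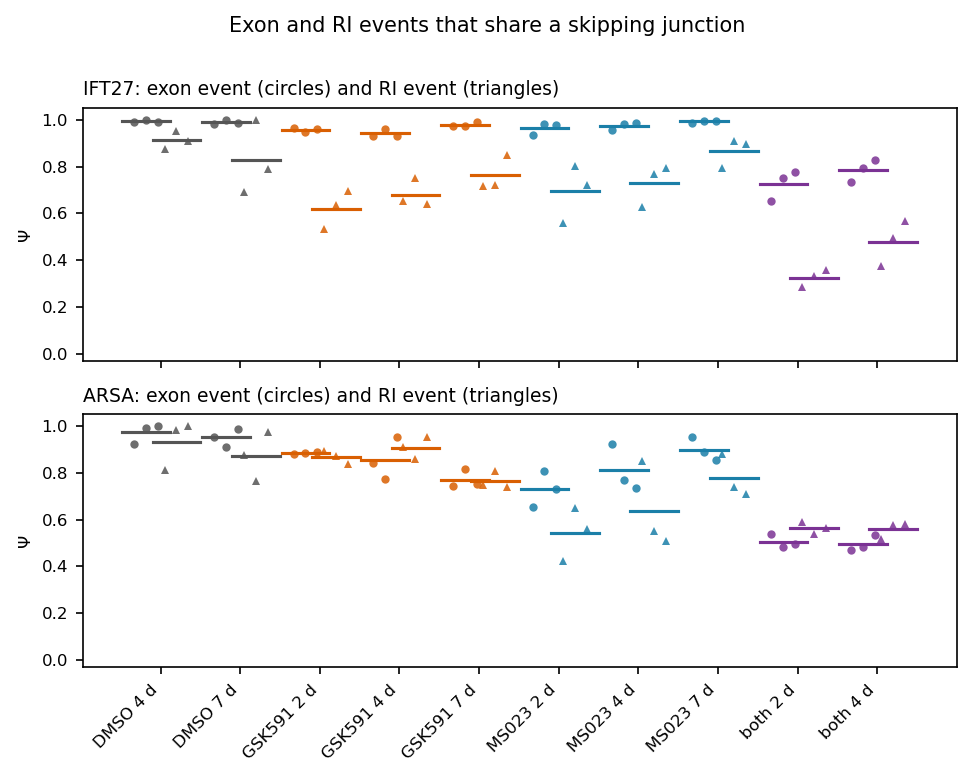
Ψ (vertical axis, 0 to 1) of the exon event (circles) and of the RI event (triangles) that share a skipping junction in IFT27 (top) and ARSA (bottom), in each library of the 10 groups (horizontal axis), with lines at group means. In both genes the exon and the RI are low together with co-treatment, where the exon averages 0.727 and 0.785 in IFT27 and 0.505 and 0.494 in ARSA at 2 and 4 days.

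ARSA had the same structure of events. Ψ of its extreme RI was 0.812, 0.980, and 1.000 with DMSO at 4 days and 0.422, 0.649, and 0.560 with MS023 at 2 days, where skipping reads numbered 9, 1, and 0 against 52, 23, and 27. Library c of DMSO, with 175 inclusion and 0 skipping reads, allows a Ψ of at least 0.940. After 4 days of MS023 the libraries gave 0.848, 0.551, and 0.510, and the first of these overlapped DMSO. Co-treatment gave 0.591, 0.540, and 0.562 at 2 days and 0.518, 0.577, and 0.582 at 4 days, all below the DMSO libraries, while GSK591 alone at 2 and 4 days gave means of 0.866 and 0.906 that overlapped DMSO.

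Apart from the selection, 1 of 9 comparisons of the ARSA RI passed. At 4 days co-treatment differed from GSK591 by -0.347 (limma-moderated adjusted p = 0.0328), a call that was lost when any of the 6 libraries was left out and with limma on log2 odds. The latter called 6 of all 3924 RI in this comparison. The same comparison at 2 days gave -0.301 (adjusted p = 0.118). GSK591 exceeded MS023 at 4 days by 0.270, which did not pass (limma-moderated adjusted p = 0.0617). With each library left out in turn this difference ranged from 0.207 to 0.376, the latter without MS023 library a, the one near DMSO. Only that omission passed, and it removes the library most against the difference, so no call is taken from it. At 7 days Ψ was 0.746, 0.807, and 0.738 with GSK591, 0.879, 0.739, and 0.711 with MS023, and 0.877, 0.766, and 0.973 with DMSO. The groups overlapped, with a ΔΨ of -0.108 (adjusted p = 0.226) and -0.096 (adjusted p = 0.428). These became -0.161 and -0.149 without DMSO library b, and -0.058 and -0.045 without DMSO library c, with none past the threshold. In order of mean Ψ the groups were MS023 at 2 days (0.544), co-treatment at 4 and 2 days (0.559 and 0.565), MS023 at 4 days (0.637), GSK591 and MS023 at 7 days (0.764 and 0.777), GSK591 at 2 days (0.866), DMSO at 7 days (0.872), GSK591 at 4 days (0.906), and DMSO at 4 days (0.931), and all neighbours overlapped.

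The exon spanned by the ARSA RI, chr22:51065262-51065480, makes up 54.1% of its bases and is a multiple of 3 in length (219 bases). Its skipping reads equalled those of the RI in 30 of 30 libraries. Ψ of the exon was 0.923, 0.992, and 1.000 with DMSO at 4 days, 0.540, 0.482, and 0.494 with co-treatment at 2 days, and 0.653, 0.805, and 0.730 with MS023 at 2 days. At 7 days it was 0.743, 0.814, and 0.750 with GSK591 against 0.954, 0.910, and 0.987 with DMSO, with no overlap. The exon fell by 0.181 (ΔΨ -0.181, limma-moderated adjusted p = 1.67e-05), whereas the RI that uses the same skipping reads did not pass. With MS023 at 7 days ΔΨ of the exon was -0.053 (adjusted p = 0.322).

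Inclusion reads of the ARSA exon and of the RI are given as counted, with no scaling. With GSK591 at 7 days inclusion reads of the exon numbered 93, 119, and 104 against 256, 249, and 192 with DMSO, while those of the RI, which take in the flanking introns, numbered 142, 171, and 147 against 133, 122, and 134. Skipping reads numbered 13, 11, and 14 against 5, 10, and 1. With MS023 at 2 days inclusion reads of the exon numbered 242, 234, and 180, below the 267, 313, and 277 of DMSO at 4 days in all 3 libraries. Over all groups, inclusion reads of the exon numbered 52 to 119 per library with GSK591, alone or in co-treatment, and 174 to 313 in all libraries without it.

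The other 2 RI of ARSA lie near the 5′ end of the gene, outside the coding bases. The RI of 153 bases at chr22:51066221-51066373 rose with GSK591 at 7 days from 0.691 ± 0.026 to 0.828 ± 0.042, a ΔΨ of 0.138 (limma-moderated adjusted p = 0.0092). The RI of 105 bases at chr22:51066221-51066325, which lies inside it, had a ΔΨ of 0.027 (adjusted p = 0.277). Of the 4 pairs of mutually exclusive exons that involve the spanned exon or its neighbours and had enough reads, 2 passed with GSK591 at 7 days. Their ΔΨ was 0.186 (limma-moderated adjusted p = 0.00314) and -0.146 (adjusted p = 0.0143). Both share reads with the exon event. Over all genes, 8.19% of the events other than RI passed in this comparison.

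In PCNXL2 the last intron had higher Ψ with MS023 than with DMSO at every time. Ψ was 0.362, 0.528, and 0.469 with DMSO at 4 days, 0.774, 0.628, and 0.941 with MS023 at 2 days, and 0.761, 0.801, and 0.852 at 4 days. Skipping reads numbered 21, 12, and 15 with DMSO and 5, 11, and 1 and 6, 5, and 3 with MS023, and inclusion reads averaged 36.8 RPM with DMSO against 51.8 and 55.4. Few skipping reads stand behind each value. Co-treatment gave 0.780, 0.694, and 0.691 at 2 days, above DMSO, and 0.696, 0.770, and 0.445 at 4 days, where library c overlapped DMSO.

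At 7 days the PCNXL2 intron differed from DMSO with both inhibitors and in opposite directions. These libraries did not select it under the rule of the 2 largest, but with MS023 at 7 days it ranked 3 of 425 RI. Ψ was 0.681, 0.608, and 0.920 with MS023, 0.155, 0.261, and 0.226 with GSK591, and 0.271, 0.432, and 0.476 with DMSO, and neither inhibitor overlapped DMSO. It rose by 0.343 with MS023 (limma-moderated adjusted p = 0.0156) and fell by 0.179 with GSK591 (ΔΨ -0.179, adjusted p = 0.037, same test). Both calls were lost when any of the 6 libraries of the comparison was left out and with limma on log2 odds. Over all RI, limma on log2 odds called 0 of 3887 with MS023 and 640 of 3836 with GSK591 at 7 days. The direct comparison, GSK591 minus MS023, was -0.522 (limma-moderated adjusted p = 0.00445) and passed as well when each library was left out in turn. Skipping reads averaged 10.4 RPM with GSK591 at 7 days, 4.52 with DMSO, and 1.73 with MS023.

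In order of mean Ψ the PCNXL2 groups were GSK591 at 7 and 4 days (0.214 and 0.383), DMSO at 7 days (0.393), GSK591 at 2 days (0.398), DMSO at 4 days (0.453), co-treatment at 4 and 2 days (0.637 and 0.722), and MS023 at 7, 2, and 4 days (0.736, 0.781, and 0.805). Only GSK591 at 7 and 4 days were neighbours without overlap. Co-treatment exceeded GSK591 by 0.323 at 2 days and 0.254 at 4 days, and neither difference passed (limma-moderated adjusted p = 0.211 and 0.236). The other RI, intron 11 (chr1:233353678-233353776), begins with GC in place of GT and had a mean Ψ of 0.045 with DMSO and 0.249 with GSK591 at 2 days, without overlap. In the comparisons apart from the selection it never passed, with a ΔΨ of 0.083 with GSK591 (adjusted p = 0.32) and -0.036 with MS023 at 7 days (adjusted p = 0.547).

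Exons of PCNXL2 also differed between groups. The exon at chr1:233160892-233161145 had a mean Ψ of 0.904 with DMSO at 4 days, 0.657 and 0.676 with MS023 at 2 and 4 days, and 0.713 and 0.709 with co-treatment, while with GSK591 it was 0.905 and 0.917. At 7 days ΔΨ of this exon was -0.035 with MS023 (adjusted p = 0.667, limma-moderated test). The exon at chr1:233362972-233363117 rose with GSK591 at 7 days from 0.782 to 0.963 (ΔΨ 0.181, limma-moderated adjusted p = 0.00738), although at 2 days its mean was 0.648 with GSK591 against 0.917 with DMSO. The exon at chr1:233397791-233397911 rose with MS023 at 7 days from 0.550 to 0.785 with overlap of the libraries (ΔΨ 0.235, limma-moderated adjusted p = 0.033). This last exon was named for that ΔΨ, its largest, so the p-value is not free of the choice.

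**Figure D4:**
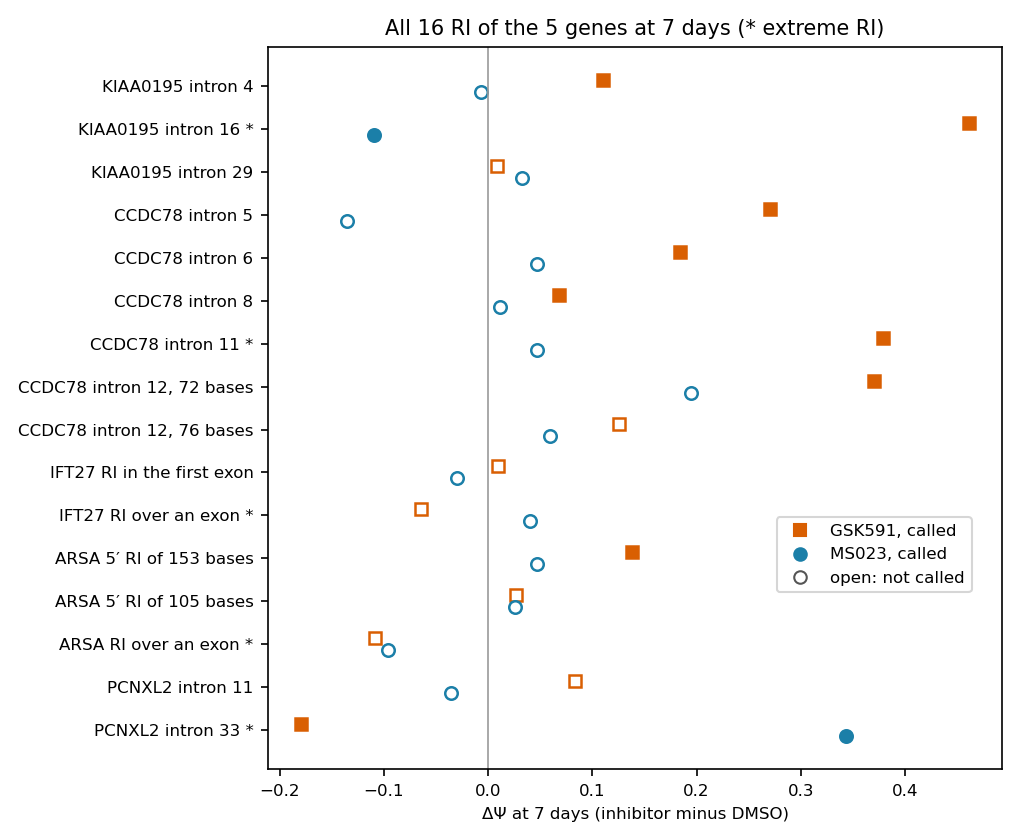
ΔΨ at 7 days (horizontal axis, inhibitor minus DMSO) of all 16 RI of the 5 genes (vertical axis), with GSK591 as squares and MS023 as circles, filled where the adjusted p was under 0.05. With GSK591, 9 RI are filled, 8 of them above 0 and the last intron of PCNXL2 below 0, and with MS023 the extreme RI of KIAA0195 (-0.109) and PCNXL2 (0.343) are filled.

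Over all 16 RI of the 5 genes, 9 passed with GSK591 at 7 days, among them 3 of the 5 extreme RI, where 27.9% of all 3836 RI tested passed. With MS023 at 7 days 2 of 16 passed, both extreme RI, against 11.4% of all RI. In the direct comparison of GSK591 with MS023, 1 of 8 RI passed at 2 days (29.5% of all RI), 4 of 14 at 4 days (38.7%), and 7 of 16 at 7 days (31.4%), with 0 of 2, 1 of 4, and 3 of 5 extreme RI. The RI of a gene share transcripts, and in CCDC78 also reads, so these counts are not of separate observations. Without GSK591 library c or DMSO library c, 5 of the RI passed with GSK591 at 7 days, and without any library of the comparison 0 passed with MS023. The share of all RI that passed with a library left out is not given here.

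Co-treatment against MS023 gave 2 of 3 at 2 days (31.5% of all RI) and 2 of 8 at 4 days (38.5%). Against GSK591 it gave 0 of 5 at 2 days (0.105%) and 1 of 10 at 4 days (2.50%), the ARSA RI. At 2 days 3 of the 5 had an unadjusted p under 0.05 and limma on log2 odds called 0. From 2 to 4 days 0 of 13 RI passed with GSK591 (0% of all RI), MS023 gave 0 of 11 (0%), and co-treatment gave 0 of 8 (0.283%), while 2 RI in each of these had an unadjusted p under 0.05 and limma on log2 odds called 0 in each. Over the 41 tests of extreme RI apart from the selection, 12 passed, of which 6 of 9 were in KIAA0195, 2 of 7 in CCDC78, 0 of 9 in IFT27, 1 of 9 in ARSA, and 3 of 7 in PCNXL2. Some of these tests, such as that of KIAA0195 between the inhibitors at 4 days, use libraries by which the extreme RI was named. The share of all RI that passed ranged from 0% to 38.7% over these comparisons, so the 12 calls have no common background.

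Among the other event types, with GSK591 at 7 days 17 of 99 skipped exons, mutually exclusive exons, and alternative splice sites listed for the 5 genes passed, where 8.19% of 98039 such events did over all genes. These were 8 of 46 in KIAA0195, 4 of 15 in CCDC78, 1 of 4 in IFT27, 3 of 13 in ARSA, and 1 of 21 in PCNXL2. After 7 days of MS023 1 of 91 passed, in PCNXL2, where 4.49% did over all genes. Many of these events share exons and reads. No gene overlaps an extreme RI, while CASKIN2 overlaps the end of KIAA0195, ANTKMT and HAGHL overlap the ends of CCDC78, and NTPCR overlaps the end of PCNXL2, all on the opposite strand. ENSG00000286485 lies in IFT27 on the opposite strand, while AC100787.1 in KIAA0195 and RPS7P3 and ENSG00000251508 in PCNXL2 are on the same strand. The libraries were stranded, and the strand setting of the counting is not given in the sources used here.

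Few genes of the lists related to these 5 had an RI in the data. The lists were of the IFT-B complex, centriole amplification, lysosomal sulfatases and their cofactors, the pecanex family, and magnesium transport. They hold 57 gene symbols, some of them an older and a newer symbol of the same gene. Of these, 10 genes had an RI with enough reads, 11 RI in all. They were 4 genes of the IFT-B complex, 3 of centriole amplification, and 3 of magnesium transport, and 0 of the sulfatase and pecanex lists. With GSK591 1 of 11 RI passed at 2 days (26.4% of all RI), 3 of 11 at 4 days (38.2%), and 1 of 10 at 7 days (27.9%). With co-treatment 0 of 11 passed at 2 days (34.7%) and 2 of 11 at 4 days (39.7%), and with MS023 0 of 11 at 2 days (5.65%), 0 of 11 at 4 days (7.17%), and 0 of 10 at 7 days (11.4%). Among these counts of 0, 1 RI with co-treatment at 2 days and 2 RI at each time of MS023 had an unadjusted p under 0.05, and limma on log2 odds called 0 in each.

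An intron of IFT80, another member of the IFT-B complex, was the RI of these lists with the largest change. At chr3:160101293-160102193 it rose with GSK591 by 0.367, 0.325, and 0.407 at 2, 4, and 7 days (limma-moderated adjusted p = 0.00297, 7.36e-04, and 7.49e-04). With co-treatment ΔΨ was 0.175 and 0.179 (adjusted p = 0.127 and 0.0515). IFT172, of the same complex, fell with co-treatment at 4 days in 2 introns, by 0.096 and 0.038 (ΔΨ -0.096 and -0.038, limma-moderated adjusted p = 0.0483 and 0.0141). The centriole gene CEP192 had 0.024 (adjusted p = 0.0468) and the magnesium channel gene TRPM7 -0.045 (adjusted p = 0.046), both with GSK591 at 4 days. When 1 library was left out, 1 RI of the lists passed with GSK591 at 4 days, except without DMSO library c, where 2 did. With co-treatment at 4 days 1 passed, except for 0 without DMSO library b and 2 without DMSO library c. At 2, 4, and 7 days of GSK591 the median ΔΨ of the tested RI of the lists was 0.012, 0.024, and -0.006, beside 0.015, 0.020, and 0.008 over all RI. With co-treatment at 2 and 4 days it was 0.020 and 0.001, beside 0.016 and 0.016, and with MS023 at 2, 4, and 7 days 0.002, 0.005, and 0.000, beside -0.003, -0.004, and -0.006.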

How the data were processed

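The authors trimmed reads with Trim Galore 0.6.5, aligned them to hg19 with STAR 2.4.2a, and counted splicing events with rMATS, whose version differs between the sources. The 8 deposited tables, 1 for each inhibitor group with its DMSO group, hold for each event the inclusion and skipping counts of 3 libraries a group, joined in 1 cell, and Ψ, a fraction, which the authors made from those counts. They also hold p-values, FDR, and differences in Ψ, which were not used. Per-sample columns not used numbered 0.

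Ψ was recomputed from the counts and differed from the deposited fraction by at most 0.000500. Libraries were counted as replicates of their group, and no pair agreed within sampling noise (chi-square per degree of freedom 1.88 to 4.72). Events with at least 10 reads in every library were tested by a quasi-binomial model of inclusion and skipping counts, with the dispersion (never below 1) moderated by limma 3.58.1 under R 4.3.3, two-sided, with Benjamini-Hochberg adjustment within event type over all genes. An event passed at an adjusted p under 0.05. Alternatives were read minimums of 20 and 1, limma on log2 odds with 0.5 added to each count, adjustment over all 5 event types, counts without division by length, and each library left out. Figures were drawn with Python 3.11.15 and matplotlib 3.10.9.

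The genes, tests, and lists were chosen with earlier results of these data known. Every RI of the 5 genes is named, with the other events that share a splice site or exon with the extreme RI where they bear on a result and at most 3 others a gene with the largest absolute ΔΨ. Where an event named for its largest ΔΨ is tested in the same libraries, the p-value is not free of that choice. Genes of the related lists are named where an RI passed. Sequences came from GRCh37, and ends of 99.09% of RI were canonical, against 0.55% after a shift of 7 bases. Counting error depends on the reads behind each Ψ, and intervals for a count of 0 cover that error only. Libraries of nascent or actinomycin-treated RNA were not analysed here.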

Additional observations from a re-analysis of the deposited data

Results flagged for a closer look

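Of the 16 RI, 7 differed between GSK591 and MS023 at 7 days by a direct test of the libraries of both inhibitors (quasi-binomial test moderated by limma, GSK591 minus MS023). Over all genes 31.4% of 3769 RI did. In KIAA0195 the extreme RI differed by 0.571 (adjusted p = 7.86e-05) and intron 4 by 0.116 (adjusted p = 0.00412). In CCDC78 the extreme RI differed by 0.332 (adjusted p = 0.0109), intron 5 by 0.405 (adjusted p = 0.00226), and intron 6 by 0.137 (adjusted p = 0.00535). The call of the CCDC78 extreme RI was lost without MS023 library b and with adjustment over all event types. In IFT27 the RI near the 5′ end of the gene differed by 0.040 (adjusted p = 0.025). In PCNXL2 the last intron differed by -0.522 (adjusted p = 0.00445), the only one of the 7 that was lower with GSK591. Groups of 3 libraries were not examined for single outlying libraries.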

How the results depend on the processing

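Over 410 repeats of the tests of the extreme RI under other settings, 362 kept their direction and their side of the threshold, 32 lost the call, 3 gained it, and 13 reversed. Read minimums of 20 and 1 changed no call of the 41. Every library had at least 34 inclusion reads on each extreme RI, so these 2 settings could exclude none of them. Each makes up 41 of the 410 repeats. Without division by effective length the ΔΨ that selected the genes became 0.309 for KIAA0195, 0.233 and 0.230 for CCDC78 at 2 and 4 days, -0.050 for IFT27, -0.169 for ARSA, and 0.070 and 0.075 for PCNXL2 at 2 and 4 days, since a long intron then outweighs its short junction. With limma on log2 odds, calls at 7 days were lost for PCNXL2 with GSK591 (-0.179, adjusted p = 0.107) and MS023 (0.343, adjusted p = 0.192) and for KIAA0195 with MS023 (-0.109, adjusted p = 0.204), as was ARSA in co-treatment against GSK591 at 4 days (-0.347, adjusted p = 0.0662), while IFT27 in co-treatment against MS023 at 4 days gained a call (-0.250, adjusted p = 0.0383). Adjustment over all 5 event types ended the calls of PCNXL2 with GSK591 (-0.179, adjusted p = 0.0849), CCDC78 between the inhibitors at 7 days (0.332, adjusted p = 0.0647), and ARSA in co-treatment against GSK591 (-0.347, adjusted p = 0.0907).

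With each library left out in turn, 3 of the called 7-day ΔΨ lost their call under every omission and kept their direction. PCNXL2 ranged from -0.24 to -0.138 with GSK591 and from 0.251 to 0.407 with MS023, and KIAA0195 from -0.122 to -0.092 with MS023. IFT27 ranged from -0.132 to 0.023 with GSK591, where it reversed without DMSO library b, and from -0.028 to 0.127 with MS023, where it reversed without DMSO library a. Other differences that had not passed also reversed, ARSA between the inhibitors at 7 days (-0.045 to 0.038, the latter without MS023 library a), ARSA in co-treatment against MS023 at 4 days (-0.141 to 0.028, likewise without MS023 library a), PCNXL2 from 2 to 4 days of GSK591 (-0.077 to 0.033, without library c of 2 days), and, from 2 to 4 days of MS023, KIAA0195 (-0.024 to 0.027, with 0.001 and 0.013), CCDC78 (-0.008 to 0.158), and IFT27 (-0.032 to 0.090). From 2 to 4 days of co-treatment ARSA (-0.018 to 0.015, with 0.008) and PCNXL2 (-0.152 to 0.011) reversed.

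The count of RI of the 5 genes that passed ranged from 5 to 7 with GSK591 at 7 days (9 with all libraries), was 0 to 0 with MS023 at 7 days and 0 with limma on log2 odds (2), from 1 to 2 for GSK591 against MS023 at 2 days (1, and 4 with limma), from 2 to 4 at 4 days (4, and 2 with adjustment over all types), and 0 to 0 for co-treatment against GSK591 at 4 days (1, and 0 with limma and with adjustment over all types). In the related lists it ranged from 1 to 2 with GSK591 at 2 days, 1 to 2 at 4 days (3 with all libraries), 1 to 2 at 7 days (2 with limma), and 0 to 2 with co-treatment at 4 days (1 with limma). Over all RI, limma on log2 odds called 0 of 3887 with MS023 at 7 days and 6 of 3924 in co-treatment against GSK591 at 4 days. The share of all RI that passed with a library left out is not given here, so these ranges cannot be set against all RI. The causes were not tested.

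No paired analysis was possible because the columns carry no replicate numbers. The planned edgeR alternative was not run. Scaling reads to events listed for all groups, chosen after seeing the data, moved none of 22 ratios of reads by more than their spread. Few skipping reads limit Ψ of IFT27, ARSA, and PCNXL2.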
